A study of Sus scrofa with 2 samples.

Results

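Cycling nuclei are nuclei of cells that are copying their DNA or preparing to divide, and in the left ventricular wall of these pigs they were rare. A kept nucleus counted as cycling when the unique molecular identifiers (UMIs, counted RNA molecules) of TOP2A, CENPF, CENPE and ASPM summed to at least 5, with at least 2 of these genes detected. MKI67, the 5th gene of the rule, has no entry among the gene symbols of the matrices and added nothing. By this rule 70 of 31664 nuclei were cycling, 47 of 14939 in the triple-transgenic library (TG) and 23 of 16725 in the wild-type library (WT). The study profiled frozen free wall of the left ventricle from Bama pigs, a miniature breed, by single-nucleus RNA sequencing, with 1 library per genotype. TG pigs carried 3 transgenes: GIPRdn, a GIP receptor made to block signalling by that gut hormone, hIAPP, the human peptide that forms amyloid in pancreatic islets, and a variant form of the lipase PNPLA3, and WT pigs carried none of these. Both groups had eaten a high-fat, high-sucrose diet for 12 months, so no library shows the tissue without the diet. The promoters of the transgenes and the number of pigs behind a library are not given in the sources used here.

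A dividing cell copies its DNA in S phase, condenses the copies into chromosomes, attaches them to the spindle at protein plates called kinetochores, pulls them apart with kinesin motors and splits. The genes for these steps are switched on in waves by E2F factors at the start of S phase and by the MYB-MuvB complex and FOXM1 before mitosis, and are nearly silent in resting cells. Cardiomyocytes of an adult mammal seldom divide, whereas T and NK lymphocytes multiply when activated. Gene roles given here are those known from human and mouse cells.

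Kept nuclei had a median of 3937 UMIs in TG and 5442 UMIs in WT. Cycling nuclei had a median of 4386 UMIs in TG (2047 to 20500), against 3930.5 in other TG nuclei, and 9487 UMIs in WT (2298 to 16625), against 5439 in other WT nuclei. The median mitochondrial share was 1.08% in cycling and 0.576% in other nuclei of TG, and 0.760% and 0.446% in WT. The libraries share 81 barcodes, 75 of them among kept nuclei, and no cycling nucleus carries a shared barcode. With 1 library per genotype there is no replicate check, no test between genotypes and no p-value. All intervals are 95% intervals that cover counting error only.

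The nuclei were chosen by the UMIs of these genes, which are therefore described without a test. TOP2A, the enzyme that untangles DNA strands (ENSSSCG00000017473, chromosome 12, 22001300 to 22028452 in Sscrofa11.1), was detected in 40 of 47 cycling nuclei in TG and in 22 of 23 in WT. CENPF, a kinetochore protein (ENSSSCG00000015581, chromosome 9, 128948386 to 129012241), was detected in 43 in TG and in 22 in WT. CENPE, the kinetochore motor (ENSSSCG00000023296, chromosome 8, 117888968 to 117965325), was detected in 45 in TG and in 21 in WT. ASPM, which organises spindle poles (ENSSSCG00000010896, chromosome 10, 19971516 to 20039680), was detected in 29 in TG and in 18 in WT. CENPE was the least particular of the 4 genes, with a UMI in 1.28% of other nuclei in TG and 0.832% in WT, while the other 3 genes were seen in 0.161% to 0.396% of other nuclei of either library. Cycling nuclei held 61.6% of all UMIs of the 4 genes in TG (630 of 1023) and 57.4% in WT (444 of 774).

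The summed UMIs of the 4 genes had a median of 9 in TG (5 to 71) and of 16 in WT (6 to 38). All 4 genes were detected in 23 of 47 nuclei in TG and in 15 of 23 in WT. Just inside the minimum, sums of 5, 6 and 7 UMIs were held by 6, 6 and 4 nuclei in TG and by 0, 3 and 0 in WT. Just outside it, 1 TG nucleus and 11 WT nuclei had a sum of 4. Of the WT nuclei with a sum of 4, 9 had at least 2 of the genes. These 11 held a median of 19 UMIs (4 to 233) of the other cycle genes described next, and the TG nucleus held 136.

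Genes of the cell cycle that the rule did not read were high in nearly every cycling nucleus. Summed over 161 such genes of 10 lists, a cycling nucleus held a median of 105 UMIs in TG (4 to 240) and 195 UMIs in WT (28 to 526), against medians of 6 in other TG nuclei and 7 in other WT nuclei. As CPM, UMIs scaled in the usual way to the total of all nuclear-encoded genes, these medians were 19972 CPM in TG and 24711 CPM in WT, against 1379 CPM in other nuclei of TG and 1226 CPM in those of WT. In TG 42 of 47 and in WT 23 of 23 cycling nuclei lay above the 99th percentile of the other nuclei of their library. For these 65 nuclei the label goes with the other cycle genes, which move with the rule genes and so are no separate test. The other 5, all in TG, had between 4 and 16 UMIs of the 161 genes. TG nucleus 25 is the clearest case, with 13 UMIs of the rule genes, 8 of them from CENPF, and 4 UMIs of the other cycle genes.

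Most cycling nuclei held more UMIs of the mitotic lists than of the DNA synthesis lists. UMIs of the mitotic lists (84 genes) exceeded those of the DNA synthesis lists (66 genes) in 39 of 47 nuclei in TG and in 19 of 23 in WT, and the reverse held in 7 in TG and in 4 in WT. The synthesis share of both sums had a median of 23.8% in TG (4.71% to 66.0%) and of 24.3% in WT (5.56% to 74.0%). All 4 rule genes are mitotic genes, so nuclei early in S phase are less likely to be found. The mitotic lists also take in the cyclins and kinases of the S to M phases, and the sums were not scaled to the number of genes. The comparison therefore does not give the phase of a nucleus. TG nucleus 24, in the T or NK class, had the lowest synthesis share: it held 71 UMIs of the rule genes, 182 of the mitotic lists and 9 of the synthesis lists. WT nucleus 16, in the same class, is at the other end, with 6 UMIs of the rule genes, 47 of the mitotic and 134 of the synthesis lists.

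**Figure D1:**
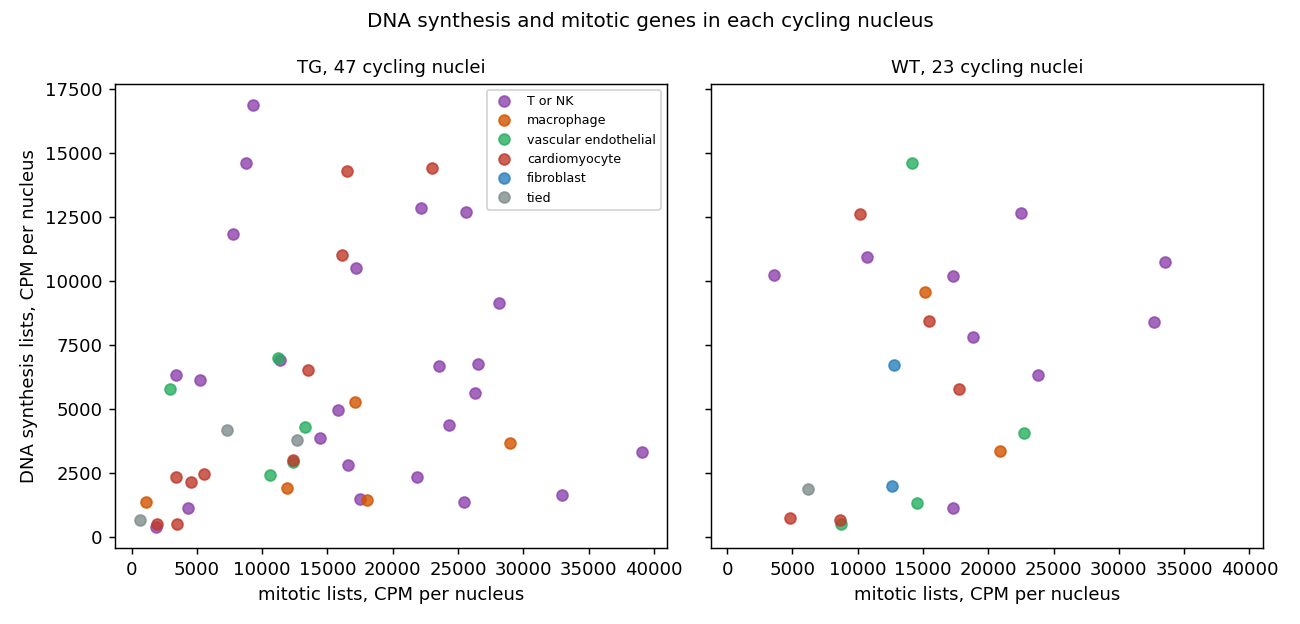
DNA synthesis lists (vertical axis, CPM per nucleus) against mitotic lists (horizontal axis, CPM per nucleus) in each cycling nucleus, with the 47 TG nuclei in the left and the 23 WT nuclei in the right panel, coloured by class. The highest mitotic value of each panel is a T or NK nucleus, at 39102 CPM in TG and 33502 CPM in WT, and the highest synthesis value is a T or NK nucleus in TG (16881 CPM) and WT nucleus 12 in WT (14621 CPM), placed in the vascular endothelial class by 10 UMIs but also carrying FLT3 and XCR1.

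T or NK lymphocytes supplied the largest group of cycling nuclei in both libraries. Each nucleus was put in the class whose genes took the highest share of its UMIs, out of 6 classes. SKAP1 and STAT4, signalling genes of lymphocytes, define the T or NK class, which held 24 of 47 cycling nuclei in TG (51.1%, exact Clopper-Pearson interval 36.1% to 65.9%) and 9 of 23 in WT (39.1%, 19.7% to 61.5%). Among other nuclei this class made up 1.81% in TG and 3.23% in WT. Within the class, 24 of 294 nuclei were cycling in TG (8.16%, 5.30% to 11.9%) and 9 of 548 in WT (1.64%, 0.754% to 3.09%). The cycling share was 52.0 times that of all other nuclei in TG (28.1 to 96.4) and 19.0 times in WT (7.25 to 47.1). These intervals cover the counting of nuclei within a library and no spread between animals.

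The cycling share was higher in the TG library than in the WT library, over all nuclei and in the T or NK class. Over all nuclei it was 0.315% in TG (0.231% to 0.418%) and 0.138% in WT (0.0872% to 0.206%), a ratio of 2.29 (1.36 to 3.95). In the T or NK class the ratio was 4.97 (2.23 to 12.2). WT nuclei were deeper than TG nuclei. Nuclei were then thinned to 2000 UMIs in 1 random draw, which left out 174 shallower nuclei in TG and 1934 in WT. Of the rest, 25 of 14765 were cycling in TG (0.169%) and 8 of 14791 in WT (0.0541%), a ratio of 3.13. In the T or NK class it was 13 of 274 in TG (4.74%) and 4 of 433 in WT (0.924%). These ratios rest on few nuclei. Over all nuclei the interval reached below 1 when a sum of at least 8 UMIs was asked (ratio 1.74, 0.958 to 3.21), and when nuclei with genes of a second class were left out (1.68, 0.932 to 3.09).

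**Figure D2:**
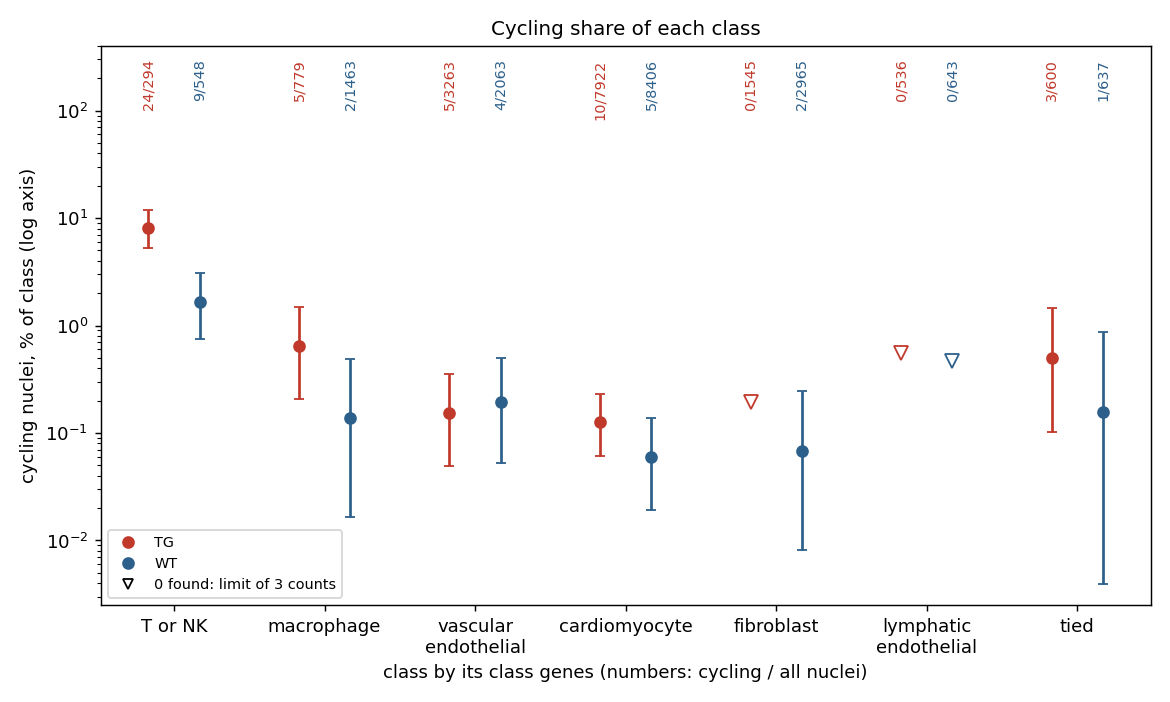
Cycling nuclei as a percentage of each class (log axis), TG in red left of WT in blue, with exact 95% intervals and the counts of cycling and all nuclei above. Where none was found, open triangles mark 3 counts over the class size, which lies under the exact bound. The T or NK class stands highest in both libraries, at 8.16% in TG and 1.64% in WT, and every other class lies under 1%.

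In the 5 other classes cycling nuclei were few, and their shares in TG and WT overlapped within counting error. CD163 and F13A1 define the macrophage class, the phagocytes of the tissue, in which 5 of 779 nuclei were cycling in TG (0.642%, 0.209% to 1.49%) and 2 of 1463 in WT (0.137%, 0.0166% to 0.493%). In the vascular endothelial class, which lines blood vessels (FLT1, PECAM1 and VWF), it was 5 of 3263 in TG (0.153%) and 4 of 2063 in WT (0.194%). In the cardiomyocyte class, the muscle cells (RYR2 and CTNNA3), it was 10 of 7922 in TG (0.126%, 0.0605% to 0.232%) and 5 of 8406 in WT (0.0595%, 0.0193% to 0.139%). The fibroblast class, which makes the matrix (ABCA8, COL1A1 and PDGFRA), had 0 of 1545 in TG (interval up to 0.238%), and 2 of 2965 in WT (0.0675%). In the lymphatic endothelial class (MMRN1 and RELN) none was found, in 536 nuclei of TG (interval up to 0.686%) and 643 of WT (interval up to 0.572%). The classes tied in 3 cycling nuclei of TG and 1 of WT.

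Single UMIs of the rule genes were also found in other nuclei of these classes, and they are given as background. TOP2A had a UMI in 3.33% of other T or NK nuclei in TG (median 2513.5 UMIs per nucleus) and in 1.48% in WT (3160 UMIs). In other cardiomyocyte nuclei it had one in 0.253% in TG (7078.5 UMIs) and in 0.107% in WT (9749 UMIs). CENPE in TG had overlapping intervals in these classes, 1.05% to 5.27% of other T or NK nuclei and 1.53% to 2.13% of other cardiomyocyte nuclei. The rule read these genes, so the values lend no support to the order of the classes.

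The class of a cycling nucleus often rested on few UMIs, more so in TG. The genes of its class summed to under 10 UMIs in 25 of 47 cycling nuclei in TG and in 6 of 23 in WT. Among all kept nuclei, 5319 of 14939 in TG and 4691 of 16725 in WT fell under 10 UMIs or tied. In WT this was thus no more common in cycling nuclei than in all nuclei. Within the T or NK class the median was 8 UMIs in cycling and 7 in other nuclei of TG, and 20 and 14 in WT. A second class reached at least 50% of the first in 17 nuclei in TG and 2 in WT, against 16.2% of other nuclei in TG and 12.0% in WT. With longer marker lists and more cell types, 35 nuclei in TG and 15 in WT kept their class. The T or NK class then held 24 in TG and 8 in WT, the macrophage class 6 in TG and 5 in WT, and the cardiomyocyte class 7 in TG and 2 in WT.

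Markers of T or NK cells were also present in many TG cycling nuclei of other classes. The 10 marker genes summed to at least 7 UMIs, the lowest value among cycling T or NK nuclei of TG (18 in WT), in 12 of 23 cycling nuclei outside that class in TG (52.2%, 30.6% to 73.2%) and in 0 of 14 in WT (interval up to 23.2%). Among other nuclei outside the class, 1.46% in TG and 0.563% in WT reached 7 UMIs. Counted by this limit in place of the class, 36 of 47 cycling nuclei in TG and 9 of 23 in WT carried the T or NK signal. The limit was taken from cycling T or NK nuclei, and the markers include SKAP1 and STAT4. All 24 cycling nuclei of that class in TG and all 9 in WT therefore pass by construction. This count and the shares that follow are thus no separate check of the class. Of all nuclei with that signal, 7.21% were cycling in TG (5.10% to 9.85%) and 1.44% in WT (0.663% to 2.72%).

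**Figure D3:**
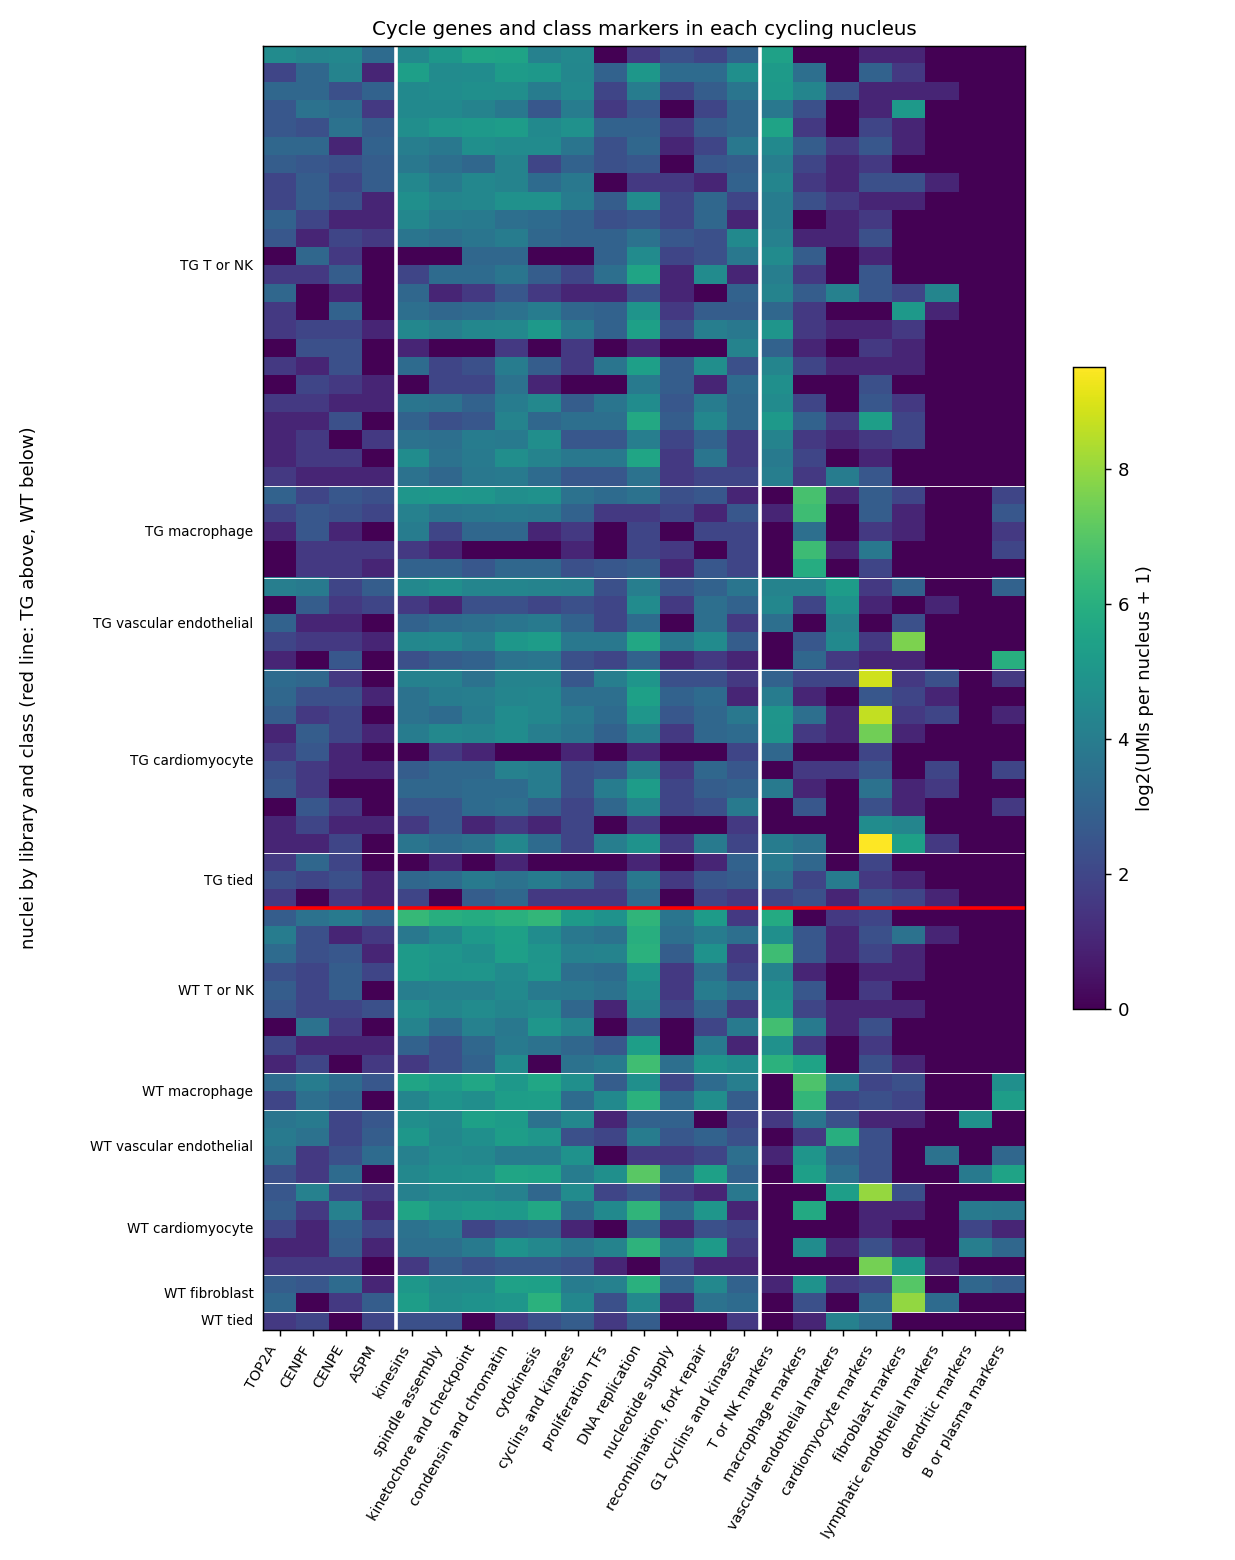
UMIs of the 4 rule genes, of cell cycle lists and of marker lists (columns, log2 of UMIs plus 1) in each of the 70 cycling nuclei (rows), TG above and WT below the red line, ordered by class. Mitotic and replication lists are bright in most rows, and T or NK markers are bright in the T or NK rows and in 12 of 23 other TG rows.

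Cardiomyocyte genes reached at least 100 UMIs, a limit set for this comparison, in 6 cycling nuclei; other nuclei of the class had a median of 145 in TG and 262 in WT. The class genes RYR2, which releases calcium from the muscle's internal store, and CTNNA3, an alpha-catenin at cell junctions, summed to at least 100 UMIs in 4 cycling nuclei of TG, with 320, 253, 537 and 137 UMIs, and in 2 of WT, with 121 and 137 UMIs. These were 4 of 5051 such nuclei in TG (0.0792%, 0.0216% to 0.203%) and 2 of 6609 in WT (0.0303%, 0.00367% to 0.109%). All 4 in TG also carried T or NK markers, at 7, 30, 15 and 29 UMIs, and both in WT carried 0. In the same order, the TG nuclei had 15548, 20500, 18850 and 8718 UMIs in total. Other TG nuclei of the class had a median of 7078.5. The WT nuclei had 5499 and 12253 UMIs, against a median of 9749 in other WT nuclei of the class. The part of depth in these marker counts was not tested. Among other nuclei with that much RYR2 and CTNNA3, 65 of 5047 in TG (1.29%) and 47 of 6607 in WT (0.711%) had at least 7 T or NK UMIs. The limit of 7 is the lowest value of the 4 TG nuclei themselves. All 4 therefore reach it by construction, and these shares are background and no test. WT nucleus 20 had 27 UMIs of the rule genes and 106 of the mitotic lists beside 258 of the cardiomyocyte markers, and also 39 of the vascular endothelial markers. WT nucleus 18 had 6 UMIs of the rule genes and 26 of the mitotic lists, beside 184 of the cardiomyocyte and 34 of the fibroblast markers. All 6 nuclei thus held at least 7 UMIs of the markers of another class, which for the 4 in TG follows from how the limit was set. Among other nuclei of the cardiomyocyte class in TG, 95th percentiles were 26 UMIs of fibroblast, 15 of vascular endothelial and 7 of macrophage markers. In WT they were 13, 6 and 9 UMIs. The share of other nuclei with 7 UMIs of any other class was not counted, and the part of shared droplets was not tested.

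**Figure D4:**
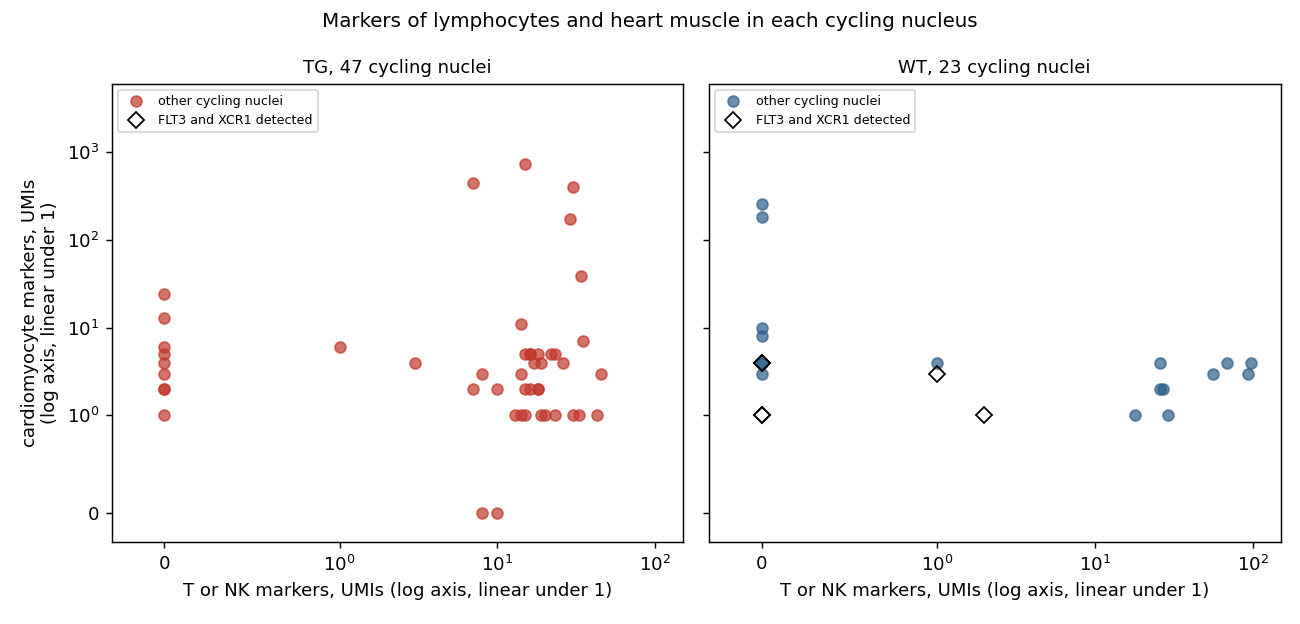
UMIs of cardiomyocyte markers (vertical axis) against UMIs of T or NK markers (horizontal axis) in each cycling nucleus, both axes logarithmic and linear under 1, with TG on the left, WT on the right and nuclei with both FLT3 and XCR1 as open diamonds. The 4 TG nuclei highest in cardiomyocyte markers sit at 7 to 30 T or NK UMIs, and the 2 such WT nuclei sit at 0.

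Cells outside the 6 classes were also among the cycling nuclei. FLT3, a growth factor receptor, and XCR1, a chemokine receptor, are genes of dendritic cells, which present antigen to T cells. Both were detected in 0 of 47 cycling nuclei in TG and in 6 of 23 in WT. Of all nuclei with both genes, 0 of 20 were cycling in TG (interval up to 16.8%), and 6 of 92 in WT (6.52%, 2.43% to 13.7%). The class genes had placed these 6 nuclei in the cardiomyocyte (3), vascular endothelial (2) and fibroblast (1) classes. WT nucleus 4 held 5 UMIs of FLT3, 22 of XCR1, 20 of the transcription factor IRF8 and 256 of CD74, the chaperone of antigen presentation. TG nucleus 7, in the vascular endothelial class with 1 UMI of its genes, held 60 UMIs of JCHAIN, the joining chain of antibodies made by plasma cells.

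Lymphocyte genes in cycling T or NK nuclei were set against other nuclei of that class; the genes were picked after their values were seen, and the difference between libraries was not tested. Among T or NK nuclei, IL7R, the receptor for the survival signal of resting T cells, had 0 UMIs in 24 cycling nuclei of TG (up to 33.6 CPM), against 136 CPM in other nuclei of the class. In WT it had 327 CPM in cycling nuclei and 247 CPM in others, with UMIs in 3 of 9 cycling nuclei and 14 of its 22 UMIs in 1 nucleus. CCL5, a chemokine of effector T and NK cells, had 1011 CPM in cycling and 906 CPM in other nuclei of TG, and 223 and 674 CPM in WT. It was detected in 22 of 24 cycling nuclei in TG and in 5 of 9 in WT. CD3E, part of the T-cell receptor complex, had 446 CPM in cycling and 227 CPM in other nuclei of TG, and 149 and 261 CPM in WT. The WT ratios rest on 9 nuclei. Intervals that include 1 were those of CCL5 in TG (1.12, 0.905 to 1.37), and of IL7R (1.33, 0.824 to 2.04) and CD3E (0.569, 0.271 to 1.06) in WT, so an opposite direction in TG and WT is not borne out for any of these 3 genes. PTPRC, the leukocyte antigen CD45, was close to the level of other nuclei in TG, at 4626 against 4362 CPM (1.06, 0.964 to 1.16). In WT it was somewhat lower, at 3869 against 4476 CPM (0.864, 0.761 to 0.978). MYL2, a muscle myosin gene that lymphocytes do not express, was lower in cycling nuclei, at 1867 against 2672 CPM in TG and 342 against 896 CPM in WT.

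For the gene comparison, cycling nuclei were set against other nuclei of the same library weighted to the same class make-up. A gene was called when it differed at least 2-fold in TG and in WT, with at least 20 UMIs observed or expected in each. Of 2983 genes, 185 were higher (6.2%) and 77 lower (2.58%). In TG alone 8.54% of 3689 genes were higher and 5.58% lower, and in WT alone 13.6% of 3337 were higher and 12.2% lower. Genes nearly silent in other nuclei could reach 20 UMIs only through the cycling nuclei, so a count over genes that passed is no support. With no minimum, 136 of 161 cycle genes were at least 2-fold higher in both libraries, beside 2.92% of 27112 genes, and 4 of the 161 had no UMI in cycling nuclei of either library. Among 2513 genes with at least 20 expected UMIs in both, a minimum that does not read the cycling nuclei's own counts, 23 were higher (0.915%), and only 1 cycle gene reached that minimum. The rule genes are mitotic and move with the rest of the cycle, so these values describe the nuclei and test nothing.

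The machinery of chromosome movement stood highest. Summed over 13 kinesins, cycling nuclei had 2221 CPM against 94.8 CPM in TG (23.4-fold) and 2645 against 53.2 CPM in WT (49.7-fold), and all 13 were at least 2-fold higher in both. KIF11, the motor that pushes spindle poles apart, had 420 CPM in cycling nuclei of TG (37.8-fold), with UMIs in 35 of 47, and 521 CPM in those of WT (104-fold), with UMIs in 21 of 23. Of the 8 cytokinesis genes all were higher, with summed ratios of 22.5 in TG and 70.1 in WT. DIAPH3, a formin of the contractile ring, had 905 against 30.0 CPM in TG and 1311 against 7.94 CPM in WT. DIAPH3 had UMIs in 38 of 47 cycling nuclei in TG and in 20 of 23 in WT.

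Spindle, kinetochore and chromosome genes were also high. The summed ratio of the spindle genes was 8.28 in TG and 9.46 in WT. In WT this was under the 9.94 of the recombination and fork repair genes. Of 11 spindle genes 10 were higher, and TPX2, which activates the kinase Aurora A, had 308 against 5.98 CPM in TG and 277.5 against 4.92 CPM in WT. Of 25 kinetochore and checkpoint genes 23 were higher, and BUB1, a checkpoint kinase, had 192 against 1.04 CPM in TG and 196 against 1.13 CPM in WT. All 11 condensin and chromatin genes were higher, with summed ratios of 10.0 in TG and 15.7 in WT. NCAPG, a condensin subunit, had 331 against 10.3 CPM in TG and 359 against 3.11 CPM in WT.

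Among cyclins and kinases, genes of G2 and mitosis were high and those of G1 were not. Of 16 genes of the S to M phases 14 were higher. CDK1, the kinase that starts mitosis, had 570 against 142 CPM in TG (4.01-fold) and 617 against 50.3 CPM in WT (12.3-fold). CCNB2, a cyclin that binds CDK1, had 108 against 1.27 CPM in TG and 110 against 0.632 CPM in WT. None of the 8 G1 genes was 2-fold higher in both, and their sum was 1247 against 1522 CPM in TG and 722 against 1296 CPM in WT. CCND3, a D-type cyclin, was lower, at 262 against 589 CPM in TG and 254 against 608 CPM in WT. CDK6, its partner kinase, had 731 against 590 CPM in TG and 268 against 367 CPM in WT, so its direction differed between the libraries.

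DNA synthesis genes were also higher, with summed ratios of 3.12 to 4.52 in TG and 4.03 to 9.94 in WT over the replication, nucleotide and recombination lists. Of 39 replication genes 28 were at least 2-fold higher in both, and their sum was 3242 against 845 CPM in TG (3.84-fold) and 4358 against 648 CPM in WT (6.73-fold). ATAD2, a chromatin ATPase of S phase, had 843 against 102 CPM in TG and 1148 against 45.9 CPM in WT. Of 8 nucleotide supply genes 3 were higher, and TK1, which makes thymidine phosphate, had 146 against 6.37 CPM in TG and 148 against 5.22 CPM in WT. Of 19 recombination and fork repair genes 16 were higher, among them POLQ, the polymerase of break repair, at 10.8-fold in TG and 24.9-fold in WT. Of 9 centriole genes 6 were higher, among them STIL, a centriole assembly factor, at 10.6-fold in TG and 8.91-fold in WT.

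Regulators differed by kind. Of 11 proliferation transcription factors 10 were higher, and E2F8, an E2F factor that represses in late S phase, had 96.2 against 3.21 CPM in TG and 115 against 0.665 CPM in WT. Of 16 repressors of cell cycle entry 1 was higher: CDKN2C, an inhibitor of CDK4 and CDK6, had 53.9 against 4.90 CPM in TG and 86.1 against 5.17 CPM in WT. RB1, the retinoblastoma protein that holds E2F factors back, had 304 against 207 CPM in TG and 273 against 224 CPM in WT. The repressors summed to 1.18 times the level of other nuclei in TG and 0.975 times in WT.

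**Figure D5:**
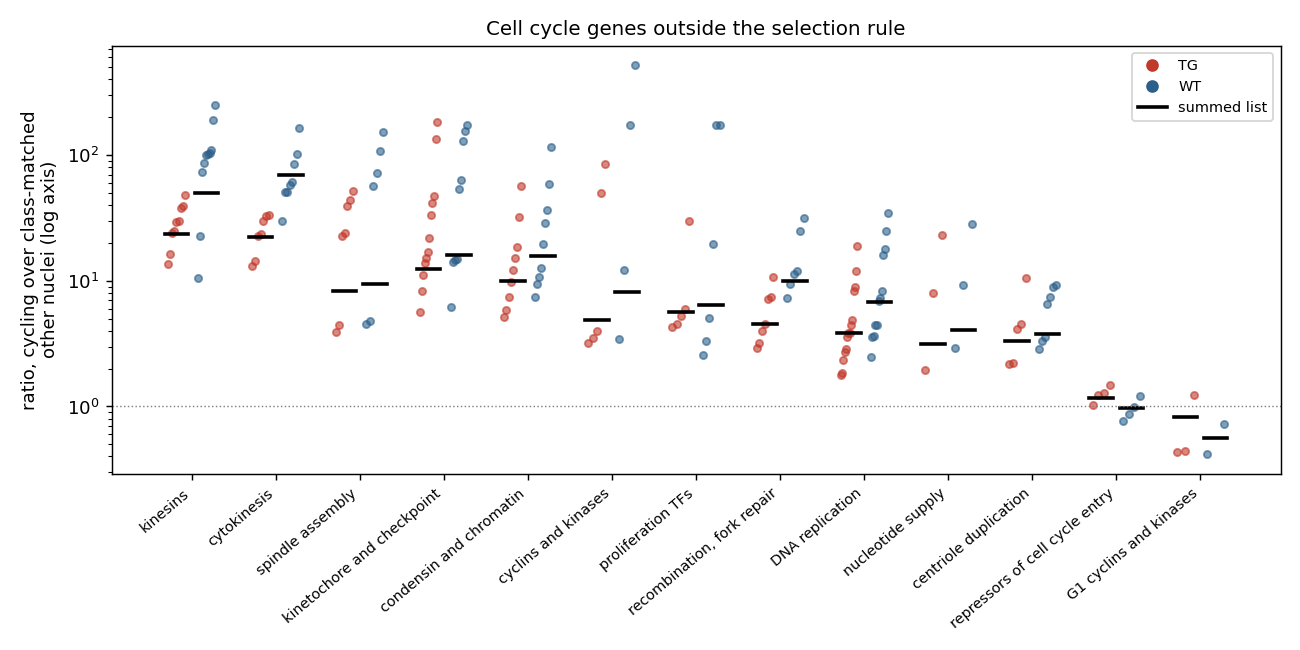
Ratio of cycling to class-matched other nuclei (log axis) for each gene with at least 20 UMIs observed or expected in that library, by list, TG in red left of WT in blue, with black bars for the ratio of the summed list. Summed ratios are highest for kinesins in TG (23.4) and cytokinesis in WT (70.1), and lowest for G1 cyclins and kinases, at 0.820 in TG and 0.557 in WT.

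Outside the lists, DEPDC1, SHCBP1 and EZH2 were among the 10 highest genes. DEPDC1, a mitotic regulator, was 94.1-fold higher in TG and 257-fold in WT, and SHCBP1, a protein of the midbody, 55.0-fold in TG and 296-fold in WT. EZH2, the methyltransferase of the Polycomb complex, was the most abundant of the 10, with 647 against 57.3 CPM in TG and 995 against 39.6 CPM in WT. The lowest genes were CYYR1, RASGRF2, CAV1, CLEC2B and TEK. TEK, the angiopoietin receptor of endothelium, had 38.5 against 137 CPM in TG and 28.7 against 142 CPM in WT, and CAV1, the coat protein of caveolae, 26.9 against 138 CPM in TG and 33.5 against 145 CPM in WT. Of the cycling nuclei in the vascular endothelial class, 1 of 5 in TG and 2 of 4 in WT held under 10 UMIs of its genes. Other nuclei of that class had a median of 9 UMIs of these genes in TG and 8 in WT. With longer marker lists and more cell types, 3 of the 5 cycling nuclei in TG and 1 of the 4 in WT stayed vascular endothelial. The part of class assignment in the lower levels of TEK, CAV1 and the other lowest genes was not tested.

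Within the T or NK class alone, kinesins again stood far above other nuclei, and the sum of the G1 genes stood below them. Kinesins summed to 3215 against 153 CPM in TG (21.0-fold) and 3467 against 70.5 CPM in WT (49.2-fold). The summed G1 genes had ratios of 0.726 in TG and 0.410 in WT. At least 2-fold higher in both libraries were 61 of 878 genes (6.95%), 26 of them in the cycle lists, and 4 were lower (0.456%). These genes could reach 20 UMIs through the cycling nuclei alone: of 666 genes with at least 20 expected UMIs in both, 0 were higher (0%), and no cycle gene was among the 666. In TG alone 9.78% of 1656 genes were higher and 4.23% lower, and in WT alone 12.6% of 932 were higher and 5.47% lower. With no minimum, 123 of 158 cycle genes were higher in both, beside 3.52% of 18970 genes. CDK1 had 1011 against 149 CPM in TG and 967 against 73.2 CPM in WT. CCND3 had 428 against 1147 CPM in TG and 595 against 1529 CPM in WT. CDK6, also a G1 gene, was not lower in TG, at 1120 against 1001 CPM (1.12-fold). In WT it had 268 against 506 CPM. A comparison of genes between TG and WT cycling nuclei of one class asked for 20 nuclei in each library, which no class had.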

How the data were processed

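Nuclei of 1 TG and 1 WT library were analysed from the deposited matrices of UMI counts per gene, which are raw counts per the file headers. The submitters' processing notes name Cell Ranger 3.1.0, Seurat 3.1.1 and the genome build Sscrofa11.1, and the file headers name Cell Ranger 5.0.0. Kept nuclei had 500 genes or more and no more than 5% of their UMIs in 13 mitochondrial genes, and no doublet caller was run. The rule was applied with 4 of its 5 genes, since MKI67 is not among the symbols of the matrices. Levels are summed counts scaled to CPM over nuclear-encoded genes, and other nuclei were weighted by the class make-up of the cycling nuclei. Intervals, at 95%, are exact Clopper-Pearson for shares, exact Poisson for levels and conditional binomial for ratios. The comparison was tested on simulated data. The members and gene lists were chosen with earlier results of these data known. Named genes were the rule genes, the 3 measured genes of each list with the highest ratio in the lower library, list genes under 1 in both, and the 10 highest and 5 lowest genes outside the lists; immune genes and CDKN2C were named after their values were seen. Alternatives changed the UMI minimum, depth, class assignment, fold, filter and scaling (edgeR TMM factors). Python 3.11.15, numpy 2.4.6, scipy 1.17.1, pandas 2.3.3, matplotlib 3.10.9, R 4.3.3 and edgeR 4.0.16 were used.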

Additional observations from a re-analysis of the deposited data

How the results depend on the processing

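The TG to WT ratio of the cycling share stayed above 1 over all nuclei (1.60 to 3.13) and in the T or NK class (3.88 to 5.41) under each alternative that gave it. The order of TG and WT turned in smaller classes. The vascular endothelial share was 0.126% in TG and 0.104% in WT with longer marker lists, and 0.263% in TG and 0.224% in WT with 10 class UMIs. The fibroblast share was 0.142% in TG and 0% in WT after thinning, 0.120% in TG and 0.0623% in WT with longer lists, and 0.132% in TG and 0.0881% in WT with class shares divided by their mean. The cycling share of WT was 0.209% with a sum of at least 3 UMIs, and that of TG 0.208% with at least 8. Thinned to 2000 UMIs, the shares were 0.169% in TG and 0.0541% in WT, 4.74% of T or NK nuclei were cycling in TG, and of 45 genes that could be tested 3 were higher, 3 lower and 1 of the higher ones was a cycle gene. The TG share of cycling nuclei in the T or NK class was 76.6% with class shares divided by their mean and 19.1% where 10 class UMIs were required, and that in the cardiomyocyte class 4.26% and 10.6%. Lower genes numbered 35 without nuclei of a second class, 29 with longer marker lists, 151 with 10 class UMIs, 140 with nuclei weighted equally and 117 with TMM factors, against 77. At 3-fold, 115 genes were higher and 14 lower, and at 1.5-fold 350 and 267. With at least 5 UMIs, 444 were higher (128 cycle genes) and 306 lower, and with no filter 792 (136) and 10658. In T or NK nuclei only, 61 were higher (26 cycle genes) and 4 lower. The longer lists, the 10 class UMIs, the T or NK restriction and a minimum of 20 UMIs of other cycle genes were chosen after seeing the data. Leaving out MKI67 was no alternative, since the rule had no UMI of it to read. The comparison of genes between TG and WT within a class was not run. No paired analysis was possible because each genotype has 1 library. Depth limits the low genes, and few cycling nuclei limit every class, with 9 in the T or NK class of WT.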

Other observations

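Some nuclei under the minimum of the rule carried as many UMIs of other cycle genes, per UMI, as the median cycling nucleus of their library. There were 20 in TG, 14 of them in the T or NK class, and 7 in WT, 4 of them in that class. None had more than 4 UMIs of the rule genes.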
